A study of Arabidopsis thaliana with 6 samples.

Results

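The 33 XTH genes of Arabidopsis thaliana, XTH1 to XTH33, were followed in a comparison from a study of 2 neighbouring root apex sections. They were found by locus identifier among 33233 assembled gene loci, where 32 had an entry of their own and XTH3 (AT3G25050) lay in a locus joined with AT3G25060. The plants were wild-type Col-0 seedlings grown for 8 days in constant light. RNA came from zone I, the apical 0.5 mm with root cap and dividing cells, or zone II, a 1.5 mm section with elongating cells and root hairs. There were 3 libraries of each zone, and the labels do not say whether these were separate plants or pools. The values are those of a comparison the authors had already made between conditions called control and experiment. No label ties either name to a zone, so a gene is called higher or lower in the experiment condition and never in a zone. Values of single libraries were not analysed, and folds therefore carry neither SD nor n. The p-values are those of the authors' Cuffdiff test, whose options are not stated. The spread they rest on is therefore unknown, and it may be technical.

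Xyloglucan is a branched glucan that coats and tethers the cellulose microfibrils of the primary wall. XTH enzymes cut a xyloglucan chain and pass the cut end either to another xyloglucan chain, which is the transglucosylase reaction, or to water, which is the hydrolase reaction. In growing roots they are known for remodelling the walls of elongating cells and of root hairs. The family is divided by sequence into group 1 (XTH1 to XTH11), group 2 (XTH12 to XTH26) and group 3 (XTH27 to XTH33). Subgroup IIIA, XTH31 and XTH32, is the one for which hydrolysis is known to be the main activity.

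The coding bases of the catalytic site are shown for members that rose, fell or did not pass the test, because this is the part of the enzyme the family shares. Each line gives 30 bases, 5′ to 3′ on the coding strand, from RefSeq's TAIR10.1 genome. Capitals mark the codons of the 3 acidic residues of the site.
XTH5: catgatGAGataGACtttGAGtttctaggg
XTH9: cacaacGAAttcGATtttGAGttcttaggg
XTH8: agagacGAGataGATttcGAAtttctaggg
XTH15: catgacGAGataGACtttGAGtttctaggt
XTH12: tgggatGAGattGATttcGAGttcttgggt
XTH13: tgggatGAAatcGACttcGAGttcttgggt
XTH21: tgggacGAGataGATttcGAGtttttgggg
XTH26: cacgatGAGataGACttcGAGttcctagga
XTH27: catgatGAGataGATtttGAGtttcttggt
XTH31: cacgatGAGgtcGATatcGAGtttctaggg
The site was found in 32 of 33 members, and in XTH11 (AT3G48580) the searched pattern was not found. XTH15, called higher, differed from XTH5 at 2 of these 30 bases, and XTH9, called lower like XTH5, differed from it at 9. Likeness at the site was not tested against the direction of change. XTH12 and XTH13, neighbours that rose together, each differed from XTH5 at 10 bases.

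Across the family most members that passed the test were higher in the experiment condition. Of the 33 genes, 25 were tested in the authors' deposited table, 15 were called higher and 2 lower at a Cuffdiff q under 0.01, and 8 were tested without a call. Of all 18050 tested loci, 22.3% were called higher and 21.2% lower. For medians, loci listed at 0 for control were ranked as the largest rises, and those listed at 0 for experiment as the largest falls. So ranked, the median log2 fold change of the 25 tested members was 3.95, beside -0.03 over all tested loci. The 8 members without a test can have no call, so these counts and medians do not describe the whole family. A section holds many cell types, and fewer cells of a type and less RNA per cell cannot be told apart in such samples. At a q under 0.05, 16 members were higher and 2 lower, beside 27.8% and 28% of all tested loci. With an absolute log2 of at least 1 added to the authors' threshold, 13 were higher and 2 lower, beside 19.8% and 18.4%.

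**Figure D1:**
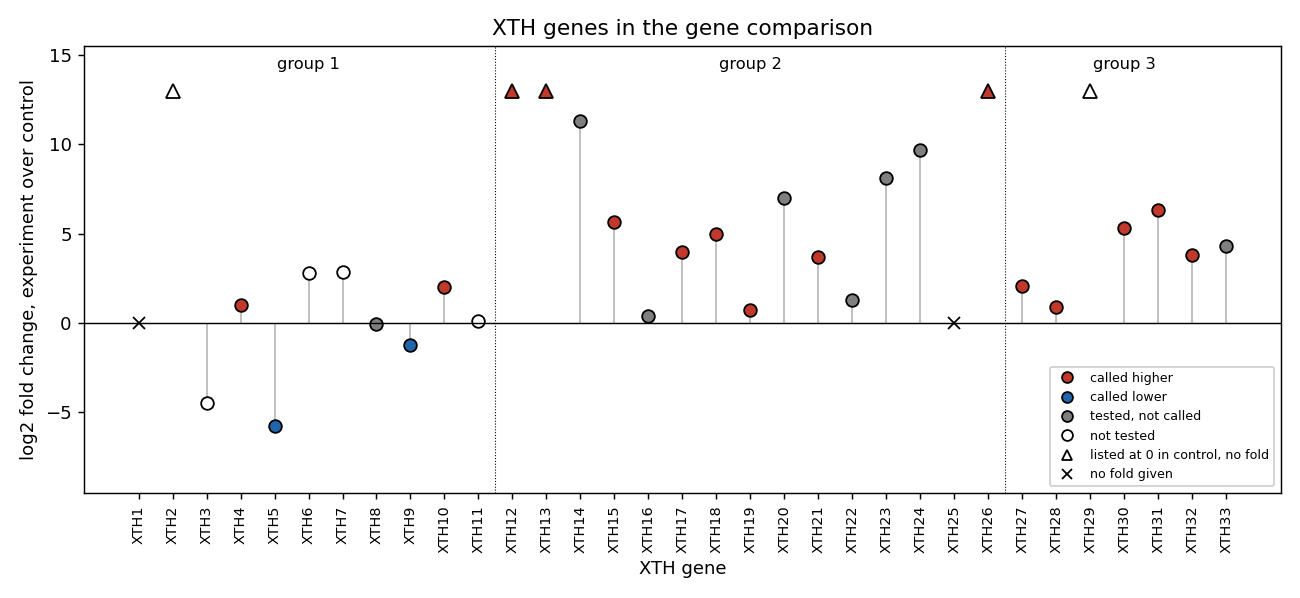
Log2 fold change of experiment over control (y axis) for each XTH gene (x axis) in the authors' deposited table, coloured by the call at q under 0.01; triangles are genes listed at 0 in the control condition, which have no fold, crosses are genes entered at 0 with no test, and the point of XTH3 is that of its joined locus. The called falls, XTH5 at -5.78 and XTH9 at -1.24, both lie in group 1, which also has 2 called rises. Every called gene of groups 2 and 3 lies above 0. Over all tested loci, 22.3% were called higher and 21.2% lower, and no test compared the groups.

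Markers of cell types were called in both directions in the same comparison, where 22.3% of all tested loci were called higher and 21.2% lower. All 5 tested markers of dividing cells and 4 of 5 of the root cap were called lower in the authors' deposited table. PLT1, PLT2, BRN1, BRN2 and FEZ were listed there at 0 in the experiment condition. Called higher in the authors' deposited table were 4 of 5 root hair markers, 2 of 3 of xylem and 1 of 2 of the endodermis. So were 3 of 3 photosynthesis genes listed as shoot markers, LHCB3, RBCS1A and RCA. The source of their transcripts was not tested. The hair fate gene RHD6 was the 1 root hair marker called lower in the authors' deposited table, at -1.23. The part of these cell types in the XTH values was not tested, and the markers do not replace a label for either condition.

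Group 1 moved both ways. XTH5 (AT5G13870) had the largest fall of the family, with a log2 fold change of -5.78 (q = 0.000177) in the authors' deposited table, a level 54.9-fold lower in the experiment condition. By size it ranked 17 among 3674 called falls with a finite fold in the authors' deposited table. The authors' deposited table places its locus on chromosome 5 from 4474976 to 4477045 on TAIR10, within the annotated protein-coding gene. XTH9 (AT4G03210), studied for its role in stem internode growth, fell by less, with -1.24 (q = 0.000177) in the authors' deposited table. A q of 0.000177 is the smallest in the gene comparison and was shared by 5093 loci, 12 of them XTH members. It therefore does not rank these genes.

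XTH4 (AT2G06850), the closest relative of XTH5 with 72.5% identical coding bases, was called in the other direction, at 1.03 (q = 0.000177) in the authors' deposited table. XTH10 (AT2G14620) rose by 2.01 on the log2 scale (q = 0.00556) in the authors' deposited table, where another assembled locus of this gene was not tested. XTH8 (AT1G11545) stood at -0.06 (q = 0.803) in the authors' deposited table and did not pass. With 2 genes called higher and 2 lower of 5 tested, group 1 had a median of -0.06. Over all tested loci, 22.3% were called higher and 21.2% lower, so these few calls are no result about the group.

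The other 6 members of group 1 were not tested by the authors. XTH1 (AT4G13080) had no fold, and XTH2 (AT4G13090) was listed at 0 for control in the authors' deposited table. XTH6 (AT5G65730) at 2.81, XTH7 (AT4G37800) at 2.87 and XTH11 at 0.10 had untested folds in the authors' deposited table. The joined locus of XTH3 stood at -4.46 in the authors' deposited table, and this value covers both genes.

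Group 2, the largest, had 8 of 14 tested genes called higher and none lower, beside 22.3% and 21.2% of all tested loci. The highest finite test statistic of the family was that of XTH15 (AT4G14130), also known as XTR7 and studied in shade-induced growth. Its log2 fold change was 5.64 (q = 0.000177) in the authors' deposited table, 49.7-fold higher in the experiment condition. Its statistic of 12.5 ranked 17 among the 3566 called rises with a finite fold in the authors' deposited table. The locus, on chromosome 4 from 8135124 to 8138299 in the authors' deposited table, reaches 1896 bases past the annotated gene and takes in AT4G14120 on the opposite strand. Without strand, reads of the 2 genes cannot be told apart where they overlap. XTH16 (AT3G23730), the closest relative of XTH15 with 81.7% identical coding bases, stood at 0.39 (q = 0.0931) in the authors' deposited table and did not pass.

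XTH21 (AT2G18800), needed for normal primary root growth, had a log2 fold change of 3.71 (q = 0.000177) in the authors' deposited table and the second-highest finite statistic of the family, 9.53. XTH17 (AT1G65310) at 3.95 and XTH18 (AT4G30280) at 4.97, root-expressed genes, both had q = 0.000177 in the authors' deposited table. Their relative XTH19 (AT4G30290) also passed but at 0.71 (q = 0.00196) in the authors' deposited table. XTH20 (AT5G48070), the remaining gene of this set of close relatives, did not pass, with 6.97 (q = 0.306) in the authors' deposited table. Coding identity was 92.2% between XTH17 and XTH18 and 89.2% between XTH18 and XTH19. The longest run shared exactly by transcripts of any of the 528 pairs of members was 68 bases, between XTH18 and XTH19, shorter than the 150 bases of a read.

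XTH12 (AT5G57530), XTH13 (AT5G57540) and XTH26 (AT4G28850), of which XTH26 is known from root hairs, were listed at 0 in the control condition. All 3 had q = 0.000177 in the authors' deposited table, and they have no fold. XTH14 (AT4G25820), another enzyme known from root hairs, had the largest finite log2 of the tested members, 11.31, but q = 0.288 in the authors' deposited table. XTH24 (AT4G30270), first described as MERI5, stood at 9.70 (q = 0.306) in the authors' deposited table. XTH23 (AT4G25810), at 8.10 (q = 0.0190) in the authors' deposited table, passed only at the looser threshold. XTH22 (AT5G57560), the touch-induced gene TCH4, was at 1.31 (q = 0.183) in the authors' deposited table. XTH25 (AT5G57550) had no fold and no test.

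Large folds without a call were not limited to these genes. Of 9 members with a finite log2 of 4 or more, 4 were called and 5 were not, and all 3 tested members listed at 0 for control were called. Over all tested loci, 36.1% of those with a finite log2 of 4 or more were called higher, and 87.1% of those listed at 0 for control. Among the 5 uncalled members the smallest p-value of the authors' deposited table was 0.0091 and the largest 0.240. A missed threshold does not show that these members were alike in both conditions.

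Group 3 had 5 of 6 tested genes called higher and none lower, beside 22.3% and 21.2% of all tested loci. Both genes of subgroup IIIA passed, XTH31 (AT3G44990) at 6.31 (q = 0.000637) and XTH32 (AT2G36870) at 3.81 (q = 0.00119) in the authors' deposited table. XTH31 had the largest finite fold among called members, 79.6-fold higher in the experiment condition. In subgroup IIIB, XTH30 (AT1G32170) at 5.33, XTH27 (AT2G01850), known from developing vessel elements of leaves, at 2.08 and XTH28 (AT1G14720), known from stamen filaments, at 0.91 passed in the authors' deposited table. Their q-values were 0.000177, 0.000177 and 0.00652 in the authors' deposited table. XTH33 (AT1G10550), which is anchored in the plasma membrane, did not pass, with 4.33 (q = 0.305) in the authors' deposited table. XTH29 (AT4G18990), listed at 0 for control, was not tested. The medians of tested members were 6.30 in group 2 and 4.07 in group 3, and no test compared the groups. Genes listed at 0 for control were ranked there as the largest rises.

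**Figure D2:**
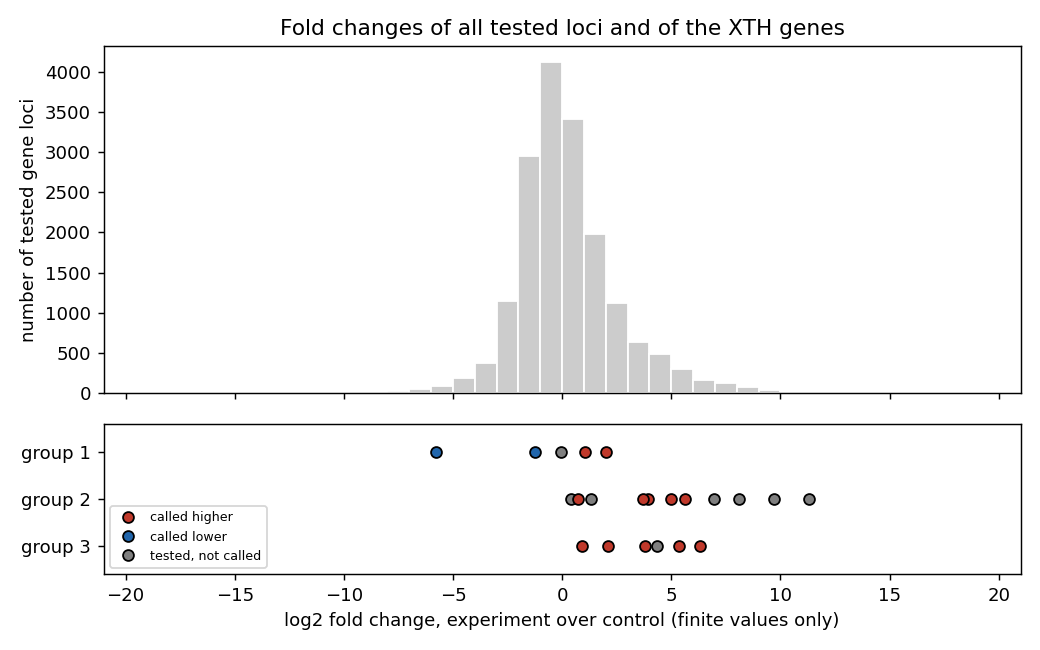
Upper panel, number of tested gene loci (y axis) per bin of log2 fold change of experiment over control (x axis, finite values, bins of width 1); lower panel, the tested XTH genes with a finite fold, by group and coloured by the call. All loci centre near 0 with a median of -0.08, while the XTH genes of groups 2 and 3 lie between 0.39 and 11.31.

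Isoforms were compared in a second deposited table with its own set of assembled loci. The 33 members had 55 isoforms, from 1 to 7 per gene, and 20 members had 1 isoform. Of 40 tested isoforms, 15 were called higher and 2 lower in the authors' deposited table, beside 9.93% and 6.9% of all tested isoforms. Counted by gene, 25 members had a tested isoform, of which 11 had an isoform called higher and 2 an isoform called lower. Of all genes with a tested isoform, these shares were 15.7% and 11.3%. All 13 members with a called isoform were also called in the gene comparison, and 4 were called there alone.

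XTH5 kept its fall with its only isoform, at -5.50 (q = 0.000428, the smallest q of the isoform comparison) in the authors' deposited table. XTH9 had an isoform at -1.06 (q = 0.000428) and another at 0.05 (q = 0.979) in the authors' deposited table. Both isoforms of XTH21 rose, by 3.60 and 3.44 on the log2 scale, and so did both of XTH12 and both of XTH13, all listed at 0 for control in the authors' deposited table. In the isoform comparison XTH12 and XTH13 lie in 1 assembled locus. XTH15 had a called isoform at 5.21 (q = 0.000428) and an uncalled one at 6.54 (q = 0.353) in the authors' deposited table. XTH17 had isoforms called at 3.60 and 4.26, and another at 13.06 did not pass (q = 0.530) in the authors' deposited table.

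The value of XTH19 differed between genes and isoforms. A single isoform of it rose by 3.58 on the log2 scale (q = 0.00523) in the authors' deposited table, against 0.71 for the gene. The other tested isoforms, at 0.45 (q = 0.480) and 0.75 (q = 0.218) in the authors' deposited table, did not pass. In the isoform comparison XTH18 and XTH19 share 1 assembled locus, from 14825755 to 14831611 on chromosome 4, so the split between the 2 genes is uncertain. Neither isoform of XTH18 passed there, with 5.39 (q = 0.270) and 5.74 (q = 0.296) in the authors' deposited table.

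XTH4 had 7 isoforms, the most of any member, in an assembled span on chromosome 2 from 2729176 to 2765748 that reaches beyond the gene, and none of the 5 tested was called, the best supported standing at 0.77 (q = 0.0238) in the authors' deposited table. XTH10 (2.16, q = 0.0616) and both isoforms of XTH26 (q = 0.283 and q = 0.282) also missed the threshold in the authors' deposited table.

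**Figure D3:**
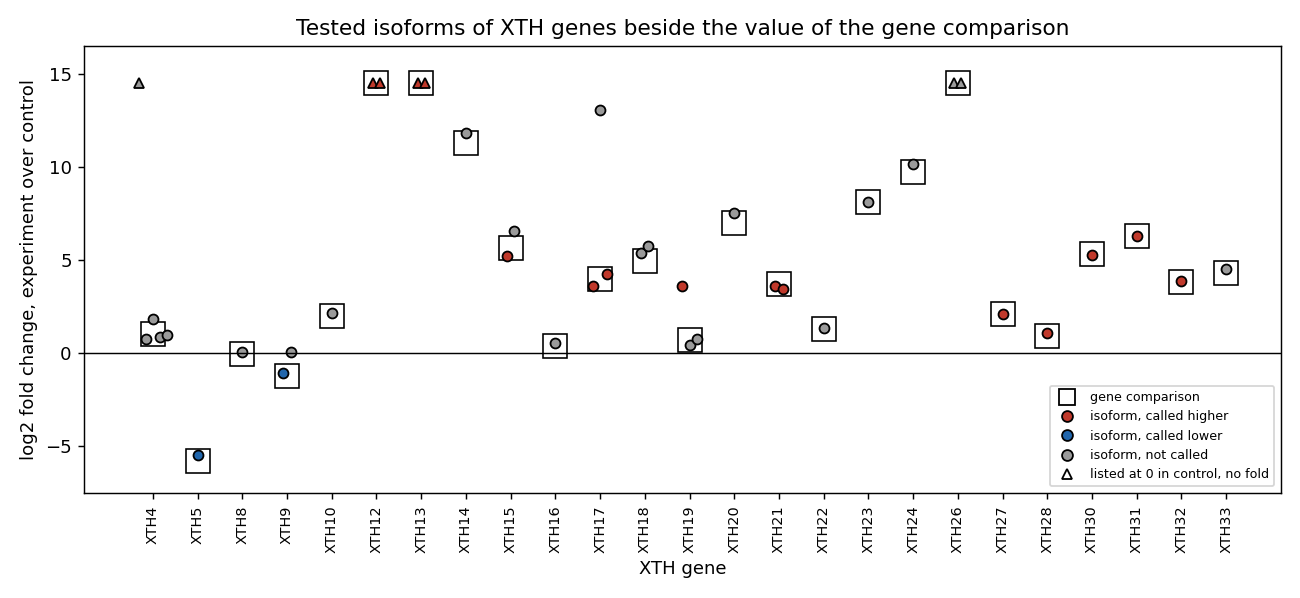
Log2 fold change of experiment over control (y axis) of each tested isoform (small points, red or blue where called) beside the value of the gene comparison (open squares) for XTH genes with a tested isoform (x axis), from the authors' deposited tables; triangles are listed at 0 in the control condition. XTH19 has 1 isoform at 3.58, far above its gene value of 0.71, and the 2 called falls are isoforms of XTH5 and XTH9.

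Some XTH genes lie side by side. In the reference annotation, 11 members lie in 4 clusters with gaps of at most 10 kb. The chromosome 5 cluster spans 8360 bases and holds XTH12 and XTH13, both called, XTH25, which had no fold, and XTH22, which did not pass, all on the same strand. The cluster with XTH18 and XTH19, both called, also holds XTH24, and spans 11033 bases on chromosome 4. XTH23 and XTH14, side by side within 3467 bases on chromosome 4, had folds of 8.10 and 11.31 in the authors' deposited table, neither of which passed. XTH1 and XTH2, the fourth cluster, had no test. Every tested gene of the clusters, called or not, had a log2 above 0 or was listed at 0 for control in the authors' deposited table. All of these tested genes belong to group 2. The same held for the tested group 2 genes outside the clusters, XTH15, XTH16, XTH17, XTH20, XTH21 and XTH26. These directions include genes that were not called, and the median over all tested loci was -0.03. A link between position and direction was not tested.

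**Figure D4:**
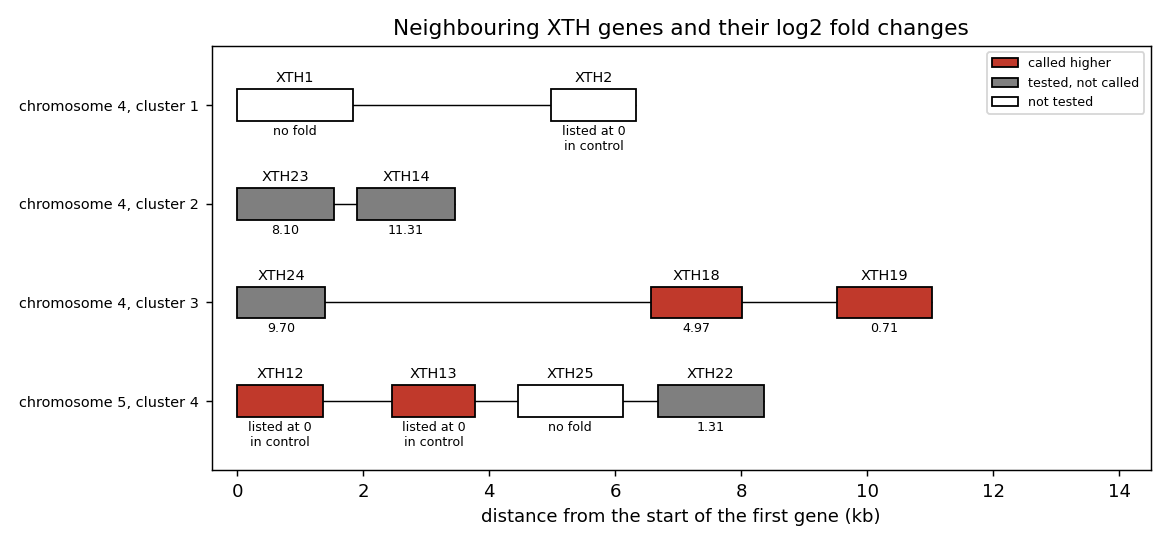
Position of neighbouring XTH genes, as distance in kb from the start of the first gene of each of 4 clusters (x axis), one row per cluster, boxes coloured by the call and labelled with the log2 fold change of experiment over control in the authors' deposited table. XTH12 and XTH13, both listed at 0 in the control condition, lie beside XTH25, which has no fold, and XTH22 at 1.31.

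The promoters of XTH12 and XTH13 are shown because these neighbours, with 89.7% identical coding bases, were called together from a control listed at 0. Each line gives the 250 bases before the annotated gene start, 5′ to 3′ on the gene's strand, from RefSeq's TAIR10.1. XTH12 is at chr5:23301690-23301939 and XTH13 at chr5:23304096-23304345, both read from the minus strand. Capitals mark TATAAA on either strand.
XTH12: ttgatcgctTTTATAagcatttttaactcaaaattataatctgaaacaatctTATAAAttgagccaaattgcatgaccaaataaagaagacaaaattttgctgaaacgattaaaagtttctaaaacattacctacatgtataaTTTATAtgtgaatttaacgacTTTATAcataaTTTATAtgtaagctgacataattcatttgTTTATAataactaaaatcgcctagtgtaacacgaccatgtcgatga
XTH13: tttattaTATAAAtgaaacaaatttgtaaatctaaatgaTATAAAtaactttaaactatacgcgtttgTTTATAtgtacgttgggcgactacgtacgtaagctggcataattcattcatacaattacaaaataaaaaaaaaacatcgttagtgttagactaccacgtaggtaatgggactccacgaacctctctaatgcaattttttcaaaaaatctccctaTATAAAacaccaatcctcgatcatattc
TATAAA, searched on both strands with overlaps allowed, was in the promoters of 18 of 33 members (54.5%) and in 47.3% of 27443 promoters of protein-coding genes. CGTGTG was in 12.1% of members and 5.37% of all promoters, TGTCTC in 6.06% and 10.9%. Neither CACGTG (6.49% of all promoters) nor the root hair element (0.754%) was in any member's 250 bases. These matches describe letters in the window and were not tested.

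Beyond the XTH genes, other genes of xyloglucan synthesis and trimming were called in both directions. All 20 listed genes were tested, and 6 were called higher and 6 lower in the authors' deposited table, beside 22.3% and 21.2% of all tested loci. These shares are near the background and are no result about the list. With an absolute log2 of at least 1, 3 were higher and 5 lower, beside 19.8% and 18.4%. Among glucan backbone synthases, CSLC12 rose by 3.84 on the log2 scale (q = 0.000177) and CSLC4 by 0.74 (q = 0.00352), while CSLC8 fell (-2.10, q = 0.000917) in the authors' deposited table. CSLC5 (0.58, q = 0.0136) did not pass. Xylosyltransferases add the first side-chain sugar, and of these XXT4 (-1.53, q = 0.00145), XXT3 (-1.37, q = 0.00246) and XXT2 (-0.89, q = 0.000177) fell in the authors' deposited table.

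Of the enzymes that extend and decorate the side chains, the galactosyltransferase XLT2 (1.12), the GDP-fucose synthesis enzyme MUR1 (0.90) and the acetylation gene AXY4 (1.44) rose, each with q = 0.000177 in the authors' deposited table. XUT1, a galacturonosyltransferase specific to root hairs, was at 5.83 (q = 0.0122), AXY4L at -3.28 (q = 0.305; another tested locus of it at -0.15, q = 0.852) and the galactosyltransferase MUR3 at -0.53 (q = 0.0414), and none of these passed in the authors' deposited table. The exoglycosidases that trim xyloglucan in the wall moved apart. The alpha-xylosidase XYL1 (-5.55) and the beta-galactosidase BGAL10 (-2.41) fell, each with q = 0.000177 in the authors' deposited table. AXY8, the alpha-fucosidase, rose by 0.84 (q = 0.000780) in the authors' deposited table.

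**Figure D5:**
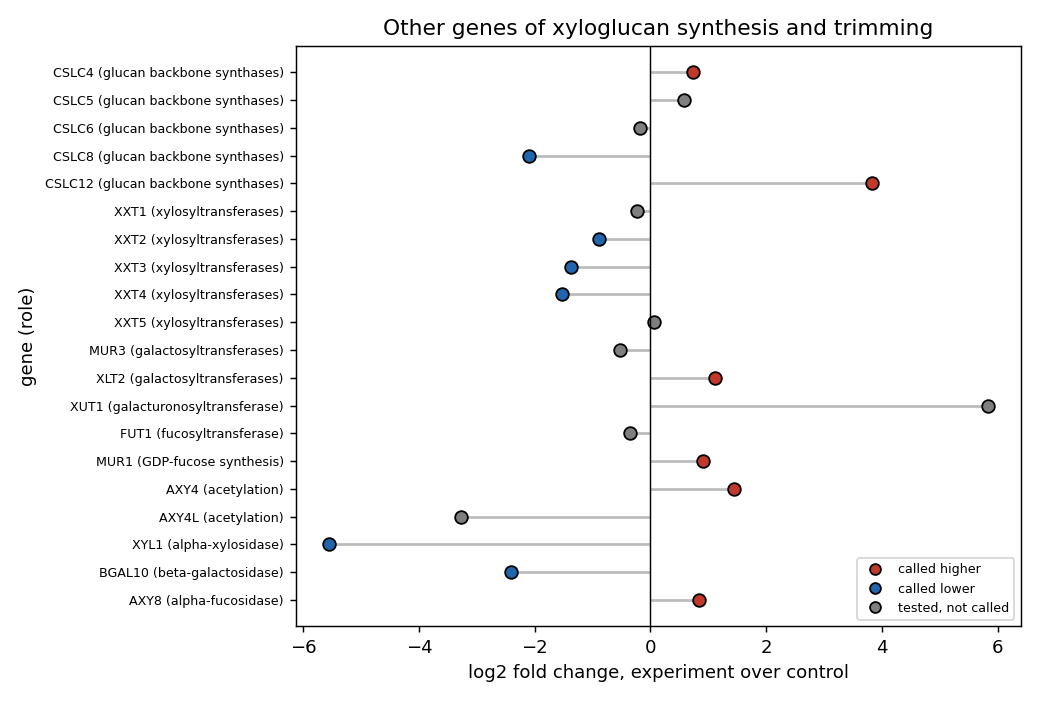
Log2 fold change of experiment over control (x axis) in the authors' deposited table for 20 other genes of xyloglucan synthesis and trimming (y axis, with their roles), coloured by the call at q under 0.01. XYL1 at -5.55 has the largest fall, and CSLC12 at 3.84 has the largest rise among called genes.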

How the data were processed

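The samples were 6 RNA-seq libraries, 3 from each root zone, grouped by their titles. Per the labels' protocols, full-length cDNA was made from nanograms of RNA by template switching, amplified by PCR, fragmented by tagmentation and read as paired ends of 150 bases. Such libraries do not mark the strand. The tools named in the submitters' processing notes are TopHat, Cufflinks and Cuffdiff, with TAIR10 as the build; their versions, roles and options are not stated there. Only tables of the authors' comparison, for genes and for isoforms, were analysed, so the depth per library and the spread between replicates are unknown, and no test was added. The 4 columns of condition values were not used, because neither condition is tied to a zone by the labels.

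Per the file headers, the log2 fold change sets the experiment condition over the control. The test statistic is a score of the authors' Cuffdiff run, and p-values and q-values are those the authors deposited, with a call at q under 0.01 over all tested loci. Where a gene had several entries, the tested entry with the largest absolute statistic was used. Members, gene lists and tests were chosen with earlier results of these data known. Every member is accounted for, and of the other xyloglucan genes each called gene and the 4 uncalled genes with the largest absolute log2 were to be named.

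Of 28172 nuclear loci of 1 named gene with an entry in RefSeq's TAIR10.1 annotation, 28171 overlapped that gene. Sequences were read by the coordinates of that annotation from the same genome, with Biopython 1.88. Coding sequences were aligned globally (match 1, mismatch -1, gap opening -4, gap extension -0.5). Alternatives were a q under 0.05, an absolute log2 of at least 1, loci without neighbours, and the isoform table.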

Additional observations from a re-analysis of the deposited data

How the results depend on the processing

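The counts of called members (15 higher, 2 lower) and the median of tested members kept their direction under every alternative that could be run, with 11 to 16 higher and 2 lower. The median was 3.95, and 3.76 with finite folds only, 3.85 in the isoform table and 3.88 without the extended locus of XTH15. A q under 0.05 for isoforms, chosen after seeing the data, gave 15 members with a called isoform in place of 13. With an absolute log2 of at least 1, the other xyloglucan genes called higher were 3 in place of 6 and those called lower 5 in place of 6, since CSLC4, MUR1 and AXY8 among the first and XXT2 among the second lie under that size. For single members, the isoform with the largest finite statistic turned XTH8 from -0.0627 to 0.0649, neither called, and 4 members lost their call. No paired analysis was possible because no value per library was analysed, and for the same reason no replicate was left out and alternatives on levels were not run. The depth of each library is unknown, so genes listed at 0 are not shown to be absent.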
